A study of Drosophila melanogaster with 18 samples.

Results

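Knock-down of the ETS repressor Aop on top of TFAM overexpression was examined in the larval central nervous system (CNS) of Drosophila melanogaster, using 3 arrays of larvae with both transgenes (TFAM o/e, Aop RNAi) and 3 arrays of larvae with TFAM overexpression alone (TFAM o/e), 6 of the 18 arrays of the series. All 18769 probe sets other than the manufacturer's AFFX controls were compared, and the 8553 with a mean log2 signal of 6 or more over the 6 arrays, called bright here, carry most of the description. The TFAM o/e, Aop RNAi larvae carried nSyb-Gal4, UAS-TFAM3M and the hairpin UAS-Aop RNAi 3166R1. The TFAM o/e larvae carried nSyb-Gal4 and UAS-TFAM3M with no hairpin, so both genotypes share the driver and the TFAM transgene. Beside them stand Aop RNAi larvae (nSyb-Gal4 with the same hairpin and no TFAM transgene) and control larvae (nSyb-Gal4 hemizygotes), and, for some genes, larvae with the pointed hairpin JF02227, with UAS-TFAM3M (TFAM o/e, Pnt RNAi) or without it (Pnt RNAi), each with 3 arrays.

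Each array measured a separate RNA sample from the complete CNS of 20 wandering larvae in their last instar, reared at 25 °C, with 10 ng of RNA taken into labelling. The labels do not say whether the 3 samples of a genotype came from separate crosses, so p-values measure the spread among these RNA samples. nSyb-Gal4 drives expression in neurons, while the RNA also holds that of glia, dividing neuroblasts and any attached tissue. In such bulk RNA, fewer cells of a type and less RNA per cell cannot be told apart. Aop was knocked down with 1 hairpin line, so the knock-down and whatever else that line carries cannot be told apart.

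TFAM packages mitochondrial DNA and drives its transcription, and too much of it reduces mitochondrial gene expression. Aop, also called Yan, is an ETS domain repressor downstream of the Ras-ERK pathway: active ERK phosphorylates it, it leaves the nucleus, and the ETS activator Pointed (Pnt) can then act on the target genes both proteins share. In the fly eye this pair is known for deciding when cells take on a neuronal fate.

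The labels were first checked on the genes that were manipulated. The aop probe set gave log2 signals of 10.54, 10.51 and 10.94 in the TFAM o/e, Aop RNAi arrays and 10.63, 10.72 and 10.61 in the TFAM o/e arrays, a difference of 0.01 ± 0.16 (SE), and it differed by 0.03 between Aop RNAi and control arrays. By this probe set the mean aop signal of the arrays labelled as carrying the hairpin was thus not lower, the arrays overlapping in the TFAM background, and where the probes lie relative to the hairpin's target is not known here. Every direction below therefore rests on the labels. The TFAM probe set gave 12.19, 12.05 and 12.06 in TFAM o/e, Aop RNAi arrays and 12.04, 12.08 and 12.12 in TFAM o/e arrays, against 10.76, 10.50 and 10.49 in control arrays. TFAM mRNA was high in both genotypes compared and differed by 0.02 ± 0.17 (SE) between them. The pnt probe set differed by 0.07.

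A neuronal marker was bright, and markers of other tissues are described further below. The pan-neuronal RNA binding protein gene elav stood at 12.03, 11.76 and 11.79 in TFAM o/e, Aop RNAi arrays and at 12.11, 11.85 and 11.82 in TFAM o/e arrays. Medians of the 6 arrays lay between 5.14 and 5.36, between 47.4 and 49.3% of probe sets were under log2 5, and 4.02 to 7.42% were at 0. Arrays correlated with r of 0.956 to 0.981 within a genotype and 0.954 to 0.983 between the genotypes, so the 2 genotypes do not separate by their overall profiles. No 2 of the 18 arrays held identical values.

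Few genes differed between the genotypes. With limma's moderated test and Benjamini-Hochberg adjustment over all probe sets, 18 probe sets (0.0959% of 18769) passed an adjusted p of 0.05, of which 8 were higher (0.0426%) and 10 lower (0.0533%) in TFAM o/e, Aop RNAi arrays. After quantile normalization the split of 18 calls was 10 higher and 8 lower. Of the 18 calls on the deposited values, 13 were bright (0.152% of the 8553), 5 higher (0.0585%) and 8 lower (0.0935%). The other 5 had a mean under 6 (3 higher and 2 lower). In all 18 the arrays of the 2 genotypes did not overlap, against 7.41% of all probe sets. The calls were chosen by a small p for these same arrays, which favours such separation, so the non-overlap is no further support. The bright calls that were lower ranged from 1.85-fold to 6.23-fold. Those that were higher ranged in log2 fold change from 0.62 (Kmn1) to 6.13 (Zip102B), and that of Zip102B was 4.81 with values under log2 5, which have no fixed scale, set to 5. At an unadjusted p under 0.05 there were 640 of the 18769 probe sets (359 higher and 281 lower). That share is below the 0.05 that such a threshold would pass on average if no probe set differed. When the fit held only the 6 arrays compared, 1 call was left, Ir76a, and the test named in the study's methods gave 0 after adjustment, with 486 at its unadjusted threshold and 1.5-fold. The plot of differences against signal shows both sides of the threshold.

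**Figure D1:**
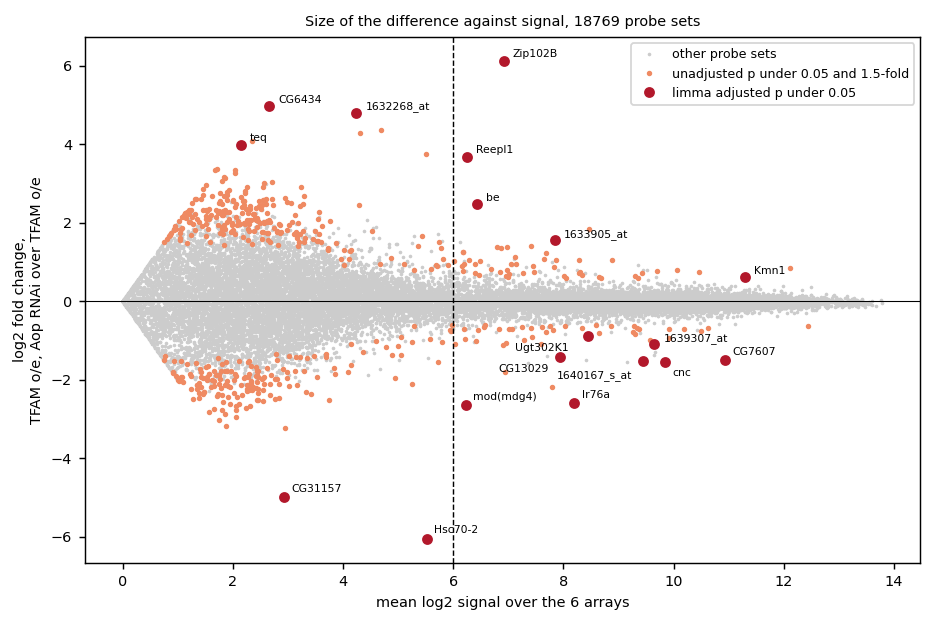
Each point is 1 of 18769 probe sets, with its mean log2 signal over the 6 arrays on the horizontal axis and the log2 fold change of TFAM o/e, Aop RNAi over TFAM o/e on the vertical axis. Red points passed the adjusted threshold (18), orange points an unadjusted p under 0.05 with at least 1.5-fold (520 with the red ones), and the dashed line marks log2 6, left of which the cloud fans out.

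Of the 18 calls, 7 were also called, in the same direction, when Aop was knocked down without TFAM overexpression, a comparison of Aop RNAi and control arrays that shares no array with the first and in which 33 probe sets (0.176%) passed, 16 higher (0.0852%) and 17 lower (0.0906%). The 7 are 38.9% of the 18 calls and 21.2% of the 33, with be and 1632268_at higher and mod(mdg4), Ir76a, cnc, 1639307_at and Ugt302K1 lower in both. An 8th call, Zip102B, was called in both comparisons in opposite directions. Both tests took their spread from the same fit of all 18 arrays, so a call in both does not rest on independent tests. The calls are grouped below by their values in the other genotypes, a grouping made after those values were seen.

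The modifier gene mod(mdg4) encodes a BTB domain chromatin protein with very many trans-spliced isoforms, and 1 of its probe sets was the most reduced of the bright calls. Probe set 1633152_at gave 4.61, 5.05 and 5.08 in TFAM o/e, Aop RNAi arrays against 7.18, 7.62 and 7.86 in TFAM o/e arrays, a log2 fold change of -2.64 ± 0.33 (SE, adjusted p = 7.1e-04). Without TFAM overexpression it gave 5.45, 4.52 and 4.94 in Aop RNAi arrays against 7.59, 7.79 and 7.82 in control arrays (log2 fold change -2.76 ± 0.33 SE, adjusted p = 2.66e-04). Every array with the Aop hairpin was thus below every TFAM o/e and control array, with and without the TFAM transgene. The Pnt hairpin arrays were low as well, at 5.32, 5.63 and 5.60 for TFAM o/e, Pnt RNAi and at 4.69, 5.56 and 4.43 for Pnt RNAi, so this signal was low in all 4 genotypes that carry a hairpin. The gene has 22 probe sets of its own on the array. The other 21 ranged from -0.27 to 0.53 in log2 fold change, 20 of them bright, and 0 passed the adjusted threshold, with 1 at an unadjusted p under 0.05. The difference is that of a single probe set and not of the gene's signal as a whole.

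Ir76a, a member of the ionotropic receptor family of chemosensory channels, had the smallest adjusted p. Its signal was 7.17, 6.99 and 6.54 in TFAM o/e, Aop RNAi arrays and 9.66, 9.32 and 9.52 in TFAM o/e arrays (log2 fold change -2.60 ± 0.20 SE, adjusted p = 1.73e-06), a 6.06-fold lower signal. In Aop RNAi arrays it was 7.34, 6.56 and 6.82, against 8.97, 8.77 and 8.96 in control arrays (-1.99 ± 0.20 SE, adjusted p = 2.09e-05). Ir76a was not low in the Pnt hairpin arrays, which gave 9.04 to 9.48 for TFAM o/e, Pnt RNAi and 9.16 to 9.34 for Pnt RNAi. The low signal thus came with the Aop hairpin, in both TFAM backgrounds, and with neither of the Pnt hairpin genotypes.

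The gene cap-n-collar (cnc) encodes the fly's Nrf2-like bZIP factor, which switches on detoxification and antioxidant genes. Its probe set 1633379_s_at gave 8.39, 9.61 and 9.20 in TFAM o/e, Aop RNAi arrays and 10.51, 10.68 and 10.63 in TFAM o/e arrays (-1.54 ± 0.27 SE, adjusted p = 0.0334). Without TFAM overexpression the arrays gave 8.94, 8.62 and 9.51 with Aop RNAi and 10.40, 10.80 and 11.25 in control (-1.79 ± 0.27 SE, adjusted p = 0.00389). The groups did not overlap in either comparison, and the spread was widest among the arrays with the hairpin. The Pnt hairpin arrays lay at 9.18 to 9.48 for TFAM o/e, Pnt RNAi and 9.08 to 9.56 for Pnt RNAi, within the range of the Aop hairpin arrays. The adjusted p of cnc was under 0.05 without replicate 2 of TFAM o/e, Aop RNAi and between 0.0901 and 0.172 without any other array. A second cnc probe set was dim (mean 3.02) and differed by 0.41.

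Probe set 1639307_at, which is annotated to several genes and is given by its identifier, was also lower with the Aop hairpin in both backgrounds, with a tighter spread. It gave 9.27, 9.09 and 8.95 in TFAM o/e, Aop RNAi arrays against 10.29, 10.07 and 10.23 in TFAM o/e arrays (-1.09 ± 0.12 SE, adjusted p = 2.81e-04). In Aop RNAi arrays it was 9.10, 9.37 and 9.09, against 10.94, 10.90 and 11.04 in control arrays (-1.77 ± 0.12 SE, adjusted p = 2.51e-07). All 4 hairpin genotypes were at one level, since the Pnt hairpin arrays gave 8.95, 9.12 and 8.87 with TFAM overexpression and 9.21, 9.15 and 9.19 without it. The smaller difference in the TFAM background goes with a lower signal in TFAM o/e than in control arrays.

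Ugt302K1, a UDP-glycosyltransferase of the kind that conjugates small lipophilic compounds, was 1.85-fold lower. Its arrays gave 8.19, 8.04 and 7.75 in TFAM o/e, Aop RNAi and 9.04, 8.81 and 8.80 in TFAM o/e (-0.89 ± 0.16 SE, adjusted p = 0.0388). Without TFAM overexpression they gave 7.93, 7.80 and 7.97 with Aop RNAi and 8.89, 8.87 and 8.71 in control (-0.92 ± 0.16 SE, adjusted p = 0.0165). The size of the reduction was nearly the same in both backgrounds, and no arrays overlapped. The Pnt hairpin arrays lay above all Aop hairpin arrays, at 8.38 to 8.89 for TFAM o/e, Pnt RNAi and 8.45 to 8.82 for Pnt RNAi. The adjusted p in the TFAM background was under 0.05 without replicate 1 of TFAM o/e, Aop RNAi and between 0.143 and 0.292 without any other array.

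The gene be was the bright call that was higher in both comparisons. Probe set 1624377_s_at gave 6.72, 7.79 and 8.52 in TFAM o/e, Aop RNAi arrays against 4.88, 5.78 and 4.94 in TFAM o/e arrays (2.48 ± 0.44 SE, adjusted p = 0.0334), and 7.61, 8.27 and 8.52 in Aop RNAi arrays against 5.41, 5.48 and 6.45 in control arrays (2.35 ± 0.44 SE, adjusted p = 0.0281). The arrays of a genotype were spread over as much as 1.80 log2 units, yet the groups stayed apart. The Pnt hairpin arrays lay at 5.49 to 6.48 for TFAM o/e, Pnt RNAi and 5.88 to 6.76 for Pnt RNAi. They overlapped the TFAM o/e arrays and the control arrays respectively, with upper ends above them. A second be probe set with a mean of 9.16 differed by -0.06, so the higher signal belongs to 1 of the gene's probe sets. Without replicate 2 of TFAM o/e or replicate 1 of TFAM o/e, Aop RNAi the adjusted p of be stayed under 0.05, and it was 0.170 to 0.269 without any other array.

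For a second group of calls the arrays of TFAM o/e stood apart from control, and the TFAM o/e, Aop RNAi arrays are given beside both. These comparisons share the TFAM o/e arrays, so a shift in those 3 arrays enters both, and the values stand side by side without a test of their relation. The widest difference of the whole comparison, Zip102B, and the heat shock cognate gene Hsc70-2 belong here.

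Zip102B encodes a transporter of the ZIP family, which moves zinc into the cytosol. Its signal was 10.13, 9.88 and 9.94 in TFAM o/e, Aop RNAi arrays against 2.61, 5.51 and 3.43 in TFAM o/e arrays, a log2 fold change of 6.13 ± 0.55 (SE, adjusted p = 1.51e-05). Without TFAM overexpression the direction was the opposite, with 4.06, 1.97 and 3.49 in Aop RNAi arrays against 10.12, 9.96 and 9.74 in control arrays (-6.77 ± 0.55 SE, adjusted p = 2.06e-06). The gene was thus either near log2 10 or under log2 6 in every one of these arrays, high in control and in the genotype with both transgenes, low with either transgene alone. The TFAM o/e, Pnt RNAi arrays were high as well, at 8.91, 9.13 and 9.13, and the Pnt RNAi arrays low, at 3.59, 2.79 and 3.76. The difference between the effect of Aop RNAi with and without TFAM overexpression, tested as an interaction in which 10 probe sets (0.0533%) passed, was 12.90 ± 0.78 (SE, adjusted p = 4.15e-08). Since dim signals have no fixed scale, values under log2 5 were also set to 5, and the fold change was then 4.81 with TFAM overexpression and -4.94 without it. The other zinc transporters did not follow: the 10 other bright probe sets of that list lay between -0.20 and 0.18.

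Hsc70-2 encodes a member of the Hsp70 chaperone family. It gave 3.63, 0.09 and 3.77 in TFAM o/e, Aop RNAi arrays, all dim, against 8.68, 8.62 and 8.32 in TFAM o/e arrays. The log2 fold change of TFAM o/e, Aop RNAi over TFAM o/e was -6.04 ± 0.85 (SE, adjusted p = 0.0034), or -3.54 with values under log2 5 set to 5. All other genotypes were dim, at 4.56, 3.98 and 3.13 in Aop RNAi arrays, 3.47, 2.86 and 5.94 in control arrays, 3.72 to 4.26 in TFAM o/e, Pnt RNAi arrays and 2.59 to 4.11 in Pnt RNAi arrays. A high Hsc70-2 signal was therefore a property of 1 genotype, TFAM o/e, in all 3 of its arrays, and of neither of the genotypes that add a hairpin to the TFAM transgene. The interaction of -5.84 did not pass (adjusted p = 0.186), so a difference between the effects of Aop RNAi with and without TFAM overexpression was not shown.

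CG7607 was also highest in TFAM o/e among the Aop genotypes. It gave 10.13, 10.56 and 9.88 in TFAM o/e, Aop RNAi arrays against 11.56, 11.83 and 11.68 in TFAM o/e arrays (-1.50 ± 0.15 SE, adjusted p = 5.63e-05), and 10.46, 10.44 and 10.16 in Aop RNAi arrays against 10.42, 10.26 and 10.38 in control arrays (0.00 ± 0.15 SE). The interaction was -1.50 with an adjusted p of 0.0053, so the effect of the hairpin differed between the 2 backgrounds. With the Pnt hairpin the signal was high with and without TFAM overexpression, at 11.48 to 11.58 and at 11.24 to 11.48.

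Probe set 1633905_at, annotated to snoRNA:Or-CD12 and RpL28, was higher with the Aop hairpin in the TFAM background. A probe set of RpL28 alone, with a mean of 13.25, differed by -0.09. Probe set 1633905_at gave 8.35, 9.07 and 8.47 in TFAM o/e, Aop RNAi arrays against 6.55, 7.58 and 7.08 in TFAM o/e arrays (1.56 ± 0.23 SE, adjusted p = 0.00426). Aop RNAi arrays, at 8.55, 8.66 and 8.87, and control arrays, at 8.65, 8.60 and 8.62, lay at the level of the genotype with both transgenes. The interaction of 1.49 did not pass (adjusted p = 0.24), so a difference between the 2 effects was not shown. The Pnt hairpin arrays were at that level too, at 8.48 to 8.98 for TFAM o/e, Pnt RNAi and 8.62 to 8.95 for Pnt RNAi.

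Probe set 1640167_s_at, annotated to 2 genes, teq and RhoU, was lower with the Aop hairpin in the TFAM background only. The arrays gave 8.21, 8.64 and 9.20 in TFAM o/e, Aop RNAi and 10.50, 10.14 and 9.99 in TFAM o/e (-1.53 ± 0.23 SE, adjusted p = 0.00569), while Aop RNAi arrays gave 9.44, 9.73 and 9.63 and control arrays 9.21, 9.78 and 8.96 (0.28). The difference between the 2 effects was -1.81 (adjusted p = 0.0476). Without replicate 1 of TFAM o/e the adjusted p of the first comparison was 0.0612. The Pnt hairpin arrays had means of 9.04 with TFAM overexpression and 9.23 without it. The brightest probe set of RhoU alone (mean 6.25) differed by -0.20 ± 0.53 (SE) with the Aop hairpin, and that of teq alone (mean 7.25) by -0.64 ± 0.25 (SE).

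Of the remaining bright calls, Reepl1 and Kmn1 stood apart in the genotype with both transgenes. Reepl1 gave 7.80, 8.24 and 8.21 in TFAM o/e, Aop RNAi arrays and 3.57, 4.65 and 4.97 in TFAM o/e arrays (3.69 ± 0.45 SE, adjusted p = 5.46e-04), while Aop RNAi arrays gave 4.82, 4.40 and 4.42 and control arrays 4.04, 4.12 and 5.02. The 3 arrays with both transgenes stood near log2 8 and the other 9 at 5.02 or lower. Its interaction was 3.53 (adjusted p = 0.0476), and its fold change with values under log2 5 set to 5 was 3.08.

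Kmn1, a subunit of the kinetochore that links chromosomes to the spindle, was modestly higher. It gave 11.63, 11.67 and 11.50 in TFAM o/e, Aop RNAi arrays and 10.92, 11.07 and 10.96 in TFAM o/e arrays (0.62 ± 0.11 SE, adjusted p = 0.0388), with 10.92, 11.10 and 11.02 in Aop RNAi arrays and 10.76 to 11.09 in control arrays. The 3 arrays with both transgenes were the highest of these 12, but the interaction was 0.55 with an adjusted p of 0.785, so a difference between the 2 effects was not shown. Mis12, another kinetochore subunit, differed by 0.73 without passing the adjusted threshold (adjusted p = 0.488) and was picked out after its value was seen. Kmn1 had an adjusted p of 0.0755 to 0.234 when any one of the 6 arrays was omitted.

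CG13029 gave 6.67, 7.52 and 7.48 in TFAM o/e, Aop RNAi arrays and 8.09, 9.11 and 8.73 in TFAM o/e arrays (-1.42 ± 0.26 SE, adjusted p = 0.0388). Aop RNAi arrays, at 7.04, 6.93 and 7.27, were also below control arrays, at 7.74, 8.24 and 7.59, but that difference of -0.78 did not pass (adjusted p = 0.547). Its adjusted p in the first comparison was under 0.05 without replicate 1 of TFAM o/e and 0.0697 to 0.265 without any other array.

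**Figure D2:**
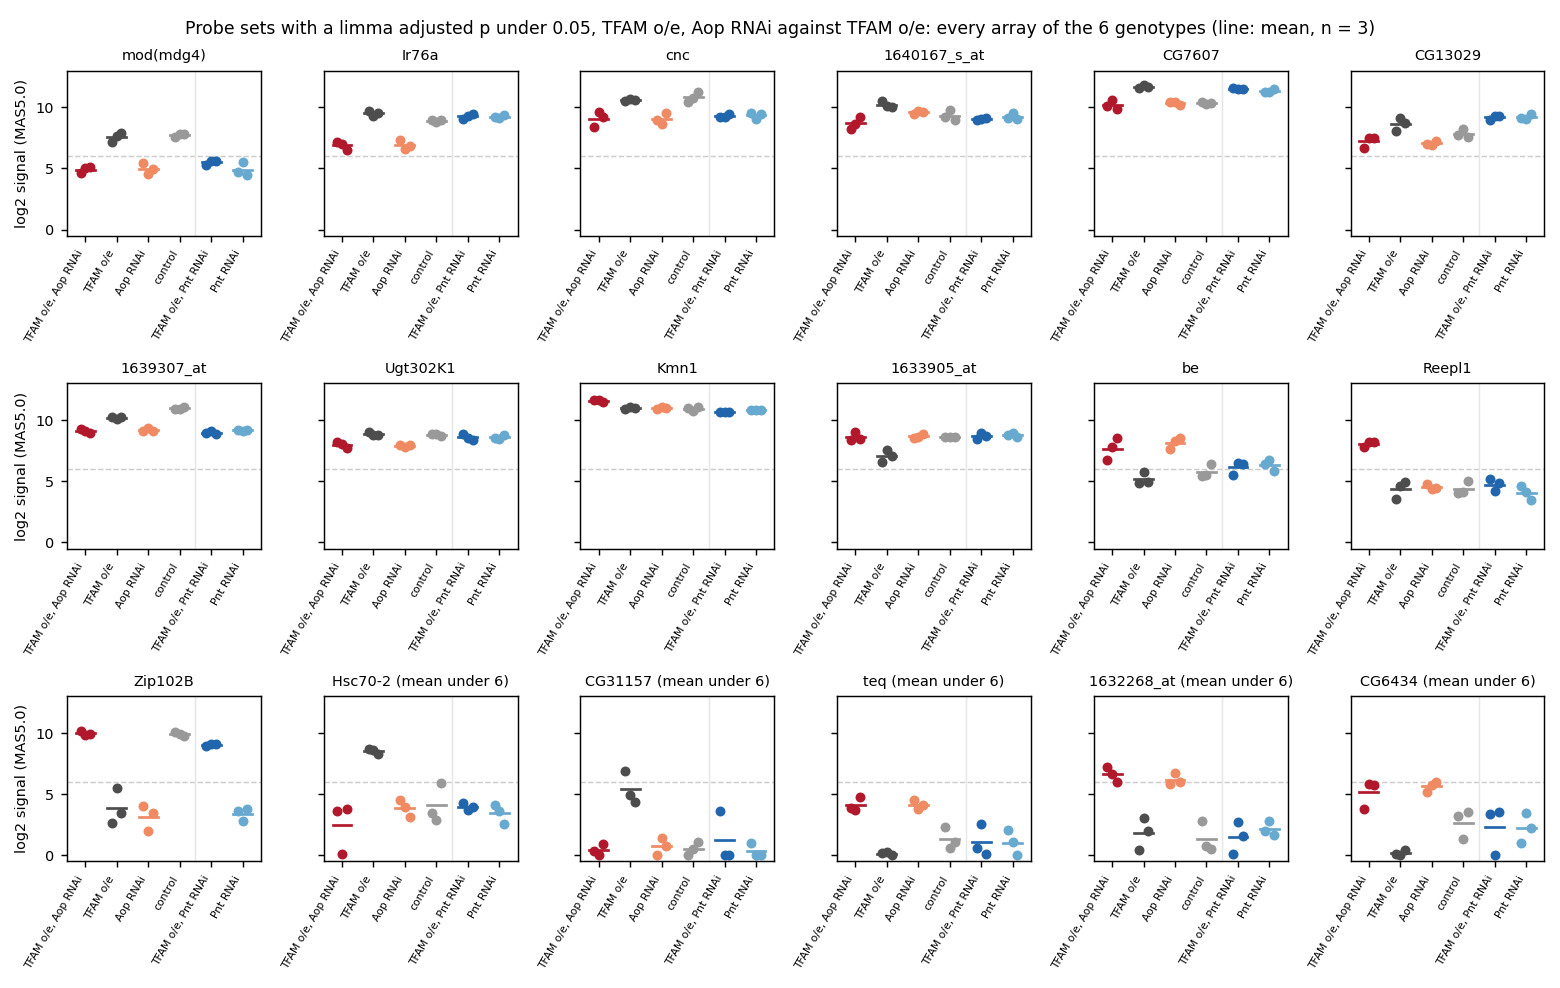
Log2 signal of the probe sets that passed the adjusted threshold, 1 panel each, with 1 point per array, a line at the mean of each of the 6 genotypes (3 arrays each) and a dashed line at log2 6. The panels show low signals with the Aop hairpin in both backgrounds for mod(mdg4), Ir76a and cnc, and a Zip102B signal near log2 10 in TFAM o/e, Aop RNAi and in control.

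Beside Hsc70-2, the calls with a mean under 6 were CG31157, teq, CG6434 and 1632268_at. CG31157 gave 0.37, 0 and 0.93 in TFAM o/e, Aop RNAi arrays against 6.90, 4.97 and 4.38 in TFAM o/e arrays (-4.98 ± 0.89 SE, adjusted p = 0.0374). The serine protease gene teq was 3.87, 3.74 and 4.80 against 0.18, 0.25 and 0 by probe set 1626427_a_at (3.99 ± 0.74 SE, adjusted p = 0.0388). CG6434 was 3.81, 5.86 and 5.75 against 0.07, 0 and 0.42 (4.98 ± 0.92 SE, adjusted p = 0.0388). With values under log2 5 set to 5 these 3 differences were -0.63, 0.00 and 0.54, and none passed, so they lie almost wholly under log2 5. A brighter teq probe set, with a mean of 7.25, differed by -0.64 in the other direction. The unnamed 1632268_at gave 7.23, 6.69 and 6.01 in TFAM o/e, Aop RNAi arrays against 0.45, 3.03 and 2.03 in TFAM o/e arrays (4.81 ± 0.80 SE, adjusted p = 0.0197), and 5.82, 6.72 and 5.96 in Aop RNAi arrays against 2.78, 0.79 and 0.52 in control arrays (4.80, adjusted p = 0.0111). It was the dim call that rose above log2 5 in all 6 Aop hairpin arrays, while the Pnt hairpin arrays lay between 0.09 and 2.79. With the floor its difference was 1.64 (adjusted p = 0.0339). CG31157 and teq had an adjusted p over 0.05 with each array left out, at 0.0602 to 0.217 and 0.119 to 0.292. That of CG6434 was under 0.05 without replicate 1 of TFAM o/e, Aop RNAi alone and 0.170 to 0.292 otherwise, and that of 1632268_at was 0.0842 to 0.152 except without replicate 2 of TFAM o/e or replicate 3 of TFAM o/e, Aop RNAi.

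A wider set was taken at 1.5-fold or more and a p under 0.05 before adjustment, the thresholds of the study's methods. It held 520 probe sets (2.77%), 297 higher (1.58%) and 223 lower (1.19%), of which 419 were dim, and 101 of the bright ones (1.18%), 53 higher (0.62%) and 48 lower (0.561%). In 80 of these 101 (43 higher and 37 lower) the arrays did not overlap, and in 490 of all 8553 bright probe sets (5.73%). The 101 were chosen by their p for the same arrays, which favours such separation. The genes named next passed this looser threshold only.

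The widest of these differences that were higher included those of the enzyme genes Nep2 and GstD9. Nep2, a neprilysin family peptidase that degrades neuropeptides, gave 7.49, 8.40 and 8.46 in TFAM o/e, Aop RNAi arrays and 7.20, 6.56 and 6.32 in TFAM o/e arrays (1.42 ± 0.29 SE, adjusted p = 0.098), with a difference of -0.05 between Aop RNAi and control. GstD9, a glutathione S-transferase, gave 9.14, 9.27 and 8.03 in TFAM o/e, Aop RNAi arrays and 7.50, 7.81 and 7.97 in TFAM o/e arrays (1.05, adjusted p = 0.488), and differed by 1.22 between Aop RNAi and control. The groups did not overlap for either gene, though 1 GstD9 array with both transgenes was within 0.06 of the highest TFAM o/e array. CG6912 (1.05, adjusted p = 0.055), CG11052 (1.03), the adenosine deaminase-related growth factor gene Adgf-C (0.97), CG10657 (0.96) and the pigmentation gene yellow (y, 0.94) were the others named by size. The y signal was 6.41, 6.90 and 7.31 in TFAM o/e, Aop RNAi arrays and 6.14, 5.90 and 5.75 in TFAM o/e arrays, and its difference of 1.36 between Aop RNAi and control passed (adjusted p = 0.04). Without replicate 1 of TFAM o/e, Aop RNAi the adjusted p of CG6912 and Nep2 was 0.0360 and 0.0222, and without replicate 3 of that genotype that of GstD9 was 0.0308.

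Among the genes that were lower at this threshold, CG7054 came closest to the adjusted one. It gave 6.62, 6.44 and 5.99 in TFAM o/e, Aop RNAi arrays and 7.39, 7.60 and 7.41 in TFAM o/e arrays (-1.12 ± 0.21 SE, adjusted p = 0.055), and it differed by -1.44 between Aop RNAi and control (adjusted p = 0.00376). The pol gene of the retrotransposon HMS-Beagle was 5.22, 5.51 and 5.75 with both transgenes and 6.62, 6.59 and 6.49 in TFAM o/e (-1.07), against 0.49 between Aop RNAi and control. The carboxylesterase gene alpha-Est7 (-1.05), CG31347 (-0.997) and CG5235 (-0.98) followed, with differences of -0.56, -0.06 and -0.16 between Aop RNAi and control.

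The Aop hairpin's effect with TFAM overexpression was then set beside its effect without it, over arrays that the 2 comparisons do not share. The p-values of both use the spread of all 18 arrays, so the shared counts below do not come from independent tests. Of the 101 bright probe sets past the looser threshold, 28 (27.7%) were past the same threshold in the same direction between Aop RNAi and control, where 831 of all probe sets passed (4.43%), and 2 in the opposite direction. Of all 8553 bright probe sets, 120 (1.40%) were past it between Aop RNAi and control with a difference of the same sign in the TFAM background. The 28 are 15.4% of the 182 bright probe sets (2.13%) past it between Aop RNAi and control. Without the 13 adjusted calls the count was 21 of 88 (23.9%), with 1 opposite. Over all 8553 bright probe sets the 2 log2 fold changes had a Pearson r of 0.0367 and a Spearman rho of 0.00847, and without the 13 adjusted calls an r of 0.0778 and a rho of 0.00633, given as a description.

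**Figure D3:**
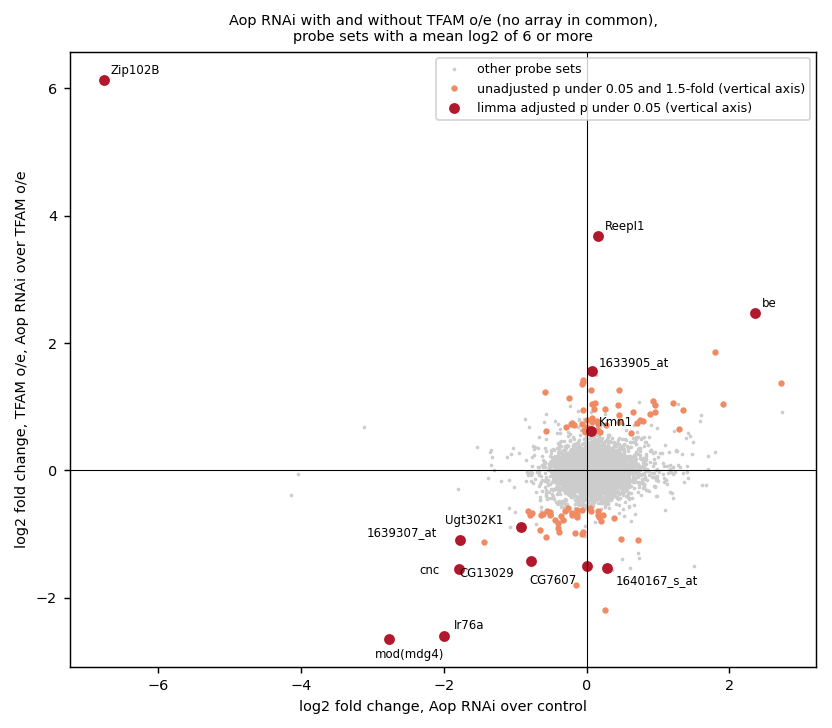
Each point is 1 of 8553 bright probe sets, with the log2 fold change of Aop RNAi over control on the horizontal axis and that of TFAM o/e, Aop RNAi over TFAM o/e on the vertical axis. Red points (13) passed the adjusted threshold on the vertical axis, with mod(mdg4), Ir76a, cnc and be away from 0 on both axes, Reepl1, CG7607 and 1633905_at near 0 on the horizontal axis, and Zip102B in the corner of opposite signs.

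Genes that differed with TFAM overexpression in the Pnt RNAi background were also looked at as a set. To choose them by a difference between other arrays than those compared here, the probe sets called between TFAM o/e, Pnt RNAi and Pnt RNAi arrays were taken, 26 in all (0.139%), 18 higher (0.0959%) and 8 lower (0.0426%), of which 23 were bright. The spread in that test came from all 18 arrays, those compared here included, so the choice was not fully separate from them. Of these 26, Zip102B alone was called between TFAM o/e, Aop RNAi and TFAM o/e. The other 25 (17 higher and 8 lower with TFAM overexpression, by 0.60 to 4.59 log2 units in size) had log2 fold changes of -0.41 to 1.22 with the Aop hairpin and a median of 0.08. The 22 bright ones among them stayed within 0.41 of 0, with intervals of 2 SE reaching up to 1.21 to either side. Choosing them with a Pnt hairpin present leaves out genes that are called between TFAM o/e and control but not in that background, among them Hsc70-2, CG7607, CG31157 and 1633905_at, described above. Not every member also differed between TFAM o/e and control, since RFeSP (3.60 in the Pnt RNAi background) and SCAP (2.18) differed by -0.11 and 0.10 there.

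The lactate dehydrogenase gene Ldh, which turns pyruvate to lactate when respiration falls short, was 1.90 log2 units higher with TFAM overexpression in the Pnt RNAi background. Its signal was 11.90, 11.84 and 11.88 in TFAM o/e, Aop RNAi arrays and 11.85, 11.79 and 12.09 in TFAM o/e arrays (-0.04 ± 0.23 SE), with overlap. Probe set 1629061_s_at, annotated to 2 genes, was 3.01 higher with TFAM overexpression and differed by 0.01 with the Aop hairpin. Arc1 and Arc2, which encode capsid-forming proteins related to retrotransposon Gag, were 1.19 and 0.97 higher with TFAM overexpression and differed by 0.14 and 0.20 with the hairpin. The outer membrane import receptor gene Tom70 (-0.60) differed by -0.01 with the hairpin.

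The insulin-like peptide gene Ilp3, made by the brain's insulin-producing cells, was the one other member of this set with an unadjusted p under 0.05 in the hairpin comparison. It was 0.95 log2 units lower with TFAM overexpression in the Pnt RNAi background, and it gave 9.85, 9.56 and 9.63 in TFAM o/e, Aop RNAi arrays against 10.08, 10.13 and 10.05 in TFAM o/e arrays (-0.41 ± 0.11 SE, adjusted p = 0.597). The 3 arrays with both transgenes were all below the 3 TFAM o/e arrays. Ilp1 differed by -0.25 and Thor, the 4E-BP gene of the translation brake below insulin signaling, by 0.07 ± 0.56 (SE). Thor fell from replicate 1 to replicate 3 in all 6 genotypes, and that spread enters this SE.

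**Figure D4:**
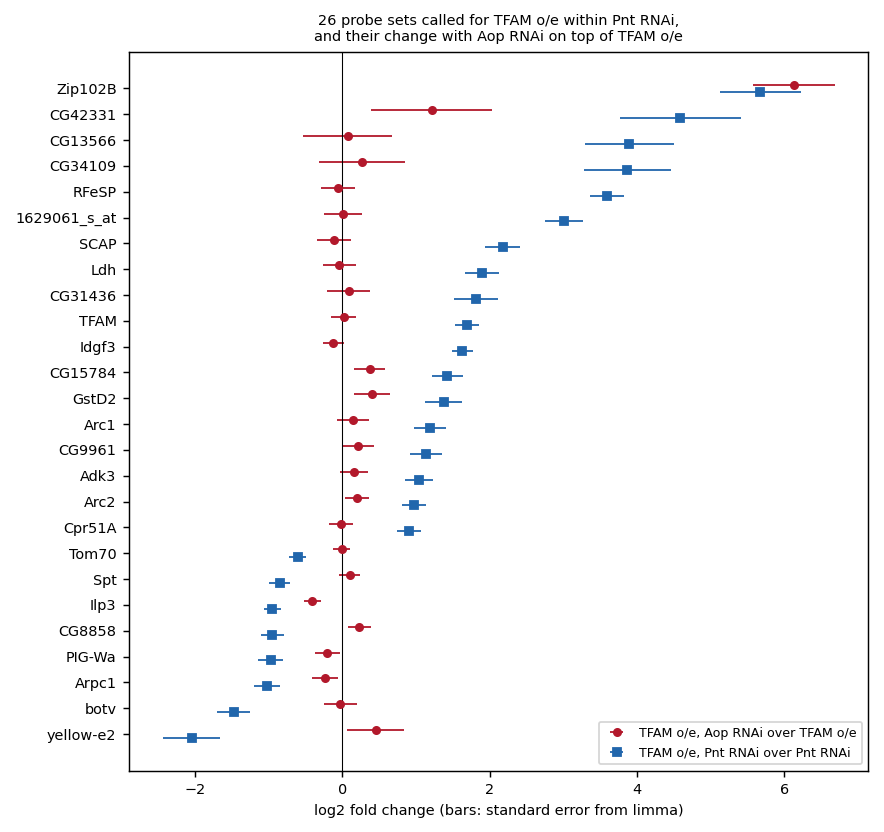
The 26 probe sets called between TFAM o/e, Pnt RNAi and Pnt RNAi, with the log2 fold change of TFAM o/e, Pnt RNAi over Pnt RNAi and that of TFAM o/e, Aop RNAi over TFAM o/e in each row and bars of 1 standard error. The squares (Pnt RNAi background) reach from -2.04 to 5.68, and the circles (Aop hairpin) lie near 0 in every row but Zip102B and the dim CG42331 (1.22).

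Gene lists were read by their counts and medians, beside a median of 0.00 over all bright probe sets and of 0.01 over all probe sets. Calls were 0.0959% of all probe sets, so lists of this size would hold about none, and a count of 0 says little about a list. For the Ras-ERK pathway in which Aop acts, the receptors, adaptors, kinases and ETS factors had 33 probe sets, 27 of them bright, with 0 past either threshold and a median of 0.03. They ranged from -0.36 for the phosphatase gene corkscrew (csw), which passes the signal on from receptors, to 0.32 for the receptor tyrosine kinase gene Pvr. The pathway's ligands, targets and feedback inhibitors had 35 probe sets, 24 of them bright, again with 0 past either threshold and a median of -0.03. The ligand gene jeb was at -0.28, the ERK phosphatase gene Mkp3 at 0.22 and the Runx factor gene lozenge (lz) at 0.46.

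Mitochondrial genes were as even. Complex I of the respiratory chain had 0 calls among 30 probe sets, and its 29 bright ones ran from -0.21 (ND-18) to 0.16 (ND-75) around a median of -0.03. Complexes II to V had 0 calls among 43 probe sets and a median of -0.01 over 35 bright ones, with ATPsynepsilonL (-0.69) past the looser threshold and UQCR-11 at 0.50. The 15 probe sets for mitochondrial DNA maintenance and expression had a median of 0.07 and 0 calls. Mitochondrial chaperones and proteases (13 probe sets, 10 bright) had a median of -0.03 and 0 calls.

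Of the stress lists, the cytosolic heat shock genes (12 probe sets) had 1 call, the dim Hsc70-2, while the 8 bright ones had a median of 0.06, with Hsp68 at 0.18 and the co-chaperone gene starvin (stv) at 0.25. The ATF4 and amino acid stress list had 0 calls among 18 probe sets. The detoxification and antioxidant list had 1 call among 27, the lower cnc, with GstD9 (1.05) past the looser threshold and a bright median of 0.05.

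Glycolysis and lactate genes (25 probe sets, 20 bright) had 0 calls and a median of -0.01, with the aldolase gene Ald1 at 0.45 and the glucose transporter gene Glut1 at 0.43. Insulin-like peptides and their targets (12 probe sets, 10 bright) had 0 calls, a median of -0.07 and Ilp7 as the lowest at -0.59. The zinc transporters (17 probe sets) had 1 call, Zip102B. Of the neuronal lists, presynaptic genes (47 probe sets, 31 bright) had 0 calls and a median of -0.05. Voltage-gated ion channels (37 probe sets, 18 bright) had 0 calls and a median of -0.01, with the A-type potassium channel gene Shal (0.68) past the looser threshold. Activity-regulated genes had 0 calls among 15 probe sets. Chromatin and histone genes (7 bright, median -0.11) and antimicrobial peptides (2 bright, median -0.27) had 0 calls as well. In all, 3 of the 17 lists of components held a call.

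**Figure D5:**
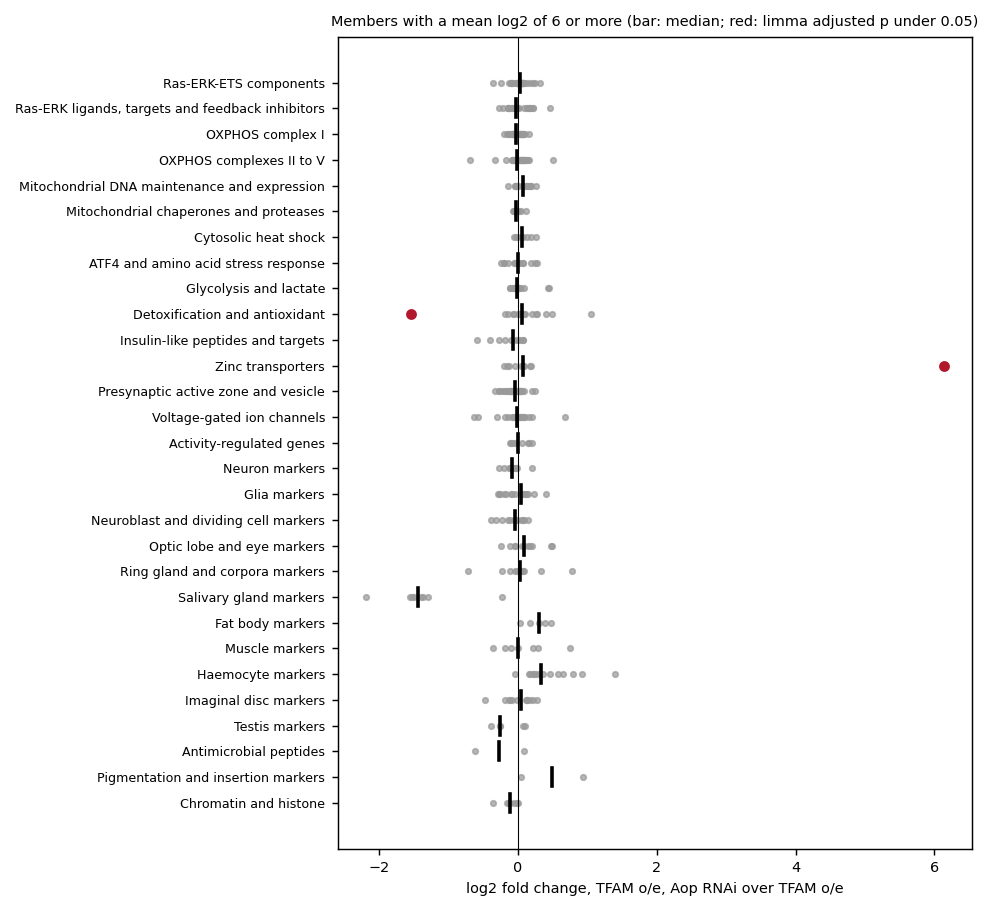
Log2 fold change of TFAM o/e, Aop RNAi over TFAM o/e for the bright probe sets of each gene list, 1 row per list, with 1 point per probe set, a bar at the list's median and the adjusted calls in red. Medians lie near 0 except for the salivary gland markers (-1.44), haemocyte markers (0.34) and the lists with 2 or 5 bright probe sets, and the red points are cnc (-1.54) and Zip102B (6.13).

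The 12 marker lists of cell types and tissues held 0 adjusted calls, beside 0.0959% of all probe sets, a share at which lists of this size would hold about none. Neuron markers (11 bright probe sets) had a median of -0.09, glia markers (17) one of 0.04, and neuroblast and dividing cell markers (14) one of -0.04. The salivary gland markers, mostly glue protein genes that the CNS does not make, were lower in all 8 bright probe sets, from -2.18 (Sgs5bis) to -0.23 with a median of -1.44. Their summed signal was between log2 10.14 and 11.86 in TFAM o/e, Aop RNAi arrays and between 10.99 and 13.90 in TFAM o/e arrays, so the ranges overlapped. Haemocyte markers were above 0 in 13 of 14 bright probe sets, with a median of 0.34, beside 4189 of all 8553 bright probe sets above 0. The phagocytic receptor gene eater gave 7.52, 8.15 and 7.33 in TFAM o/e, Aop RNAi arrays and 5.01, 7.68 and 6.12 in TFAM o/e arrays (1.40), past the looser threshold but with overlap. The summed haemocyte signal was 12.76 to 12.98 with both transgenes and 12.14 to 13.02 in TFAM o/e. The 5 bright fat body markers were all above 0, with a median of 0.31 and sums of 12.74 to 12.92 against 12.34 to 12.91. Of the muscle markers (7 bright, median 0.00), the actin gene Act87E (0.75) was past the looser threshold. Optic lobe and eye (11 bright, median 0.08), ring gland (11, 0.03), imaginal disc (12, 0.05) and testis markers (5, -0.25) and the pigmentation and insertion markers (2, 0.50) make up the rest. The part of attached tissue in the differences of this comparison was not tested.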

How the data were processed

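The complete CNS of larvae was profiled on Affymetrix Drosophila genome arrays, 18 in 6 genotypes. The authors processed the scans with MAS5 in the Transcriptome Analysis Console (both named in the submitters' processing notes), and the deposited values are log2 signals, given to 2 decimals and reaching 0 for dim probe sets. The authors' own comparisons, which hold fold changes and p-values, were not used. Arrays give no read depth, and their number limits the precision.

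Of 18952 probe sets, 183 controls were left out. The platform table gave 1 gene to 13647, several to 402 and none to 4720. Symbols of 13544 were updated through RefSeq and 95 unnamed ones were named from the study's tables, so 4625 stayed unnamed. Probe sets with several genes are given by identifier.

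All 18 arrays were fitted with limma 3.58.1 (R 4.3.3), genotype as factor and an intensity trend, with Benjamini-Hochberg adjustment over all probe sets. The script was tested on simulated data. Named are the adjusted calls, the 10 widest differences in each direction among bright probe sets at the looser threshold whose arrays do not overlap and that have 1 gene, the manipulated genes, and the extremes of each list. A gene with several probe sets is represented by its brightest unless another is stated. Members and lists were chosen with earlier results of these data known. Alternatives were quantile normalization, median centring, a filter at log2 6, a floor at log2 5, no trend, only the arrays compared, a replicate block, the test of the methods and omission of each array. Figures were drawn with matplotlib 3.10.9 (Python 3.11.15).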

Additional observations from a re-analysis of the deposited data

Results flagged for a closer look

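At 10 probe sets the effect of Aop RNAi differed with and without TFAM overexpression by a limma interaction term with an adjusted p under 0.05. For 4 of them, which also passed with TFAM overexpression, the difference of the 2 effects on the log2 scale was 12.90 at Zip102B (adjusted p = 4.15e-08), 3.53 at Reepl1 (adjusted p = 0.0476), -1.50 at CG7607 (adjusted p = 0.0053) and -1.81 at 1640167_s_at (adjusted p = 0.0476).

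The other 6 were not called with TFAM overexpression. The difference was 3.98 at RFeSP, the Rieske subunit of complex III (adjusted p = 3.53e-06), whose probe set 1641174_at differed by -0.06 with TFAM overexpression and by -4.04 without it, while the other RFeSP probe set, with a mean of 10.54, had effects of 0.16 with it and -0.35 without it. It was -1.85 at Arpc1, a subunit of the Arp2/3 complex that nucleates actin (adjusted p = 0.00352), with an effect of -0.23 with TFAM overexpression and 1.62 without it. At TTLL4B, a tubulin tyrosine ligase-like gene, it was 1.30 (adjusted p = 0.0476), with an effect of 0.00 with TFAM overexpression and -1.29 without it. The unnamed 1629047_at had -1.80 (adjusted p = 0.0476), with an effect of -1.09 with TFAM overexpression and 0.71 without it. At RFeSP 1641174_at the mean signal was 5.10 in Pnt RNAi and 8.70 in TFAM o/e, Pnt RNAi, beside 4.80 and 8.67 with the Aop hairpin. At Arpc1 it was 9.46 and 8.44, beside 9.93 and 8.37. The patterns of RFeSP and Arpc1 were thus not particular to the Aop hairpin. At TTLL4B it was 8.62 and 8.54, beside 7.58 and 8.74, and at 1629047_at 7.96 and 7.59, beside 7.92 and 7.05.

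The last 2 were dim in both genotypes with TFAM overexpression. The cytochrome P450 gene Cyp6a17 had -5.70 (adjusted p = 0.0301), with an effect of 1.19 with TFAM overexpression and 6.89 without it, and CG34051 had -5.49 (adjusted p = 0.00496), with an effect of 0.90 with TFAM overexpression and 6.38 without it. The mean Cyp6a17 signal was also high in Pnt RNAi (7.18) and low in TFAM o/e, Pnt RNAi (3.88), beside 8.81 and 3.79 with the Aop hairpin. That of CG34051 was 3.82 and 5.35, beside 10.27 and 4.61.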

How the results depend on the processing

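The count of 18 adjusted calls was 18 under quantile normalization (10 higher and 8 lower, against 8 and 10 as deposited), 15 under median centring, 15 among bright probe sets alone, 15 with the floor at log2 5 and 13 with no intensity trend, and 9 to 15 with 1 array left out. It fell to 1 in a fit of only the arrays compared and to 0 by the test of the methods. Calls lost with the floor were cnc, CG13029 and be (adjusted p = 0.169 each), CG31157, teq and CG6434. Ugt302K1, Kmn1 and CG13029 were lost under median centring (adjusted p = 0.256, 0.85 and 0.0551), and CG13029, Ugt302K1 and teq under quantile normalization (0.0586, 0.130 and 0.0597). With each array left out in turn, 8 calls remained in every run: Hsc70-2, mod(mdg4), Ir76a, CG7607, 1639307_at, 1633905_at, Reepl1 and Zip102B. The replicate block gave 19 calls, 17 of them shared. Same-numbered arrays of TFAM o/e, Aop RNAi and TFAM o/e had residual correlations of 0.344, 0.00444 and 0.278, and differently numbered ones of -0.483 to 0.381. Those of same-numbered Aop RNAi and control arrays were -0.0719, 0.434 and 0.0814. The main fit did not read the numbers as pairs, and whether they mark a shared batch was not tested. With the block the calls of Aop RNAi against control were 48 (33 without it) and the interaction calls 10.

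The 520 probe sets at the looser threshold were 97 among bright probe sets fitted alone and 125 with the floor. Aop RNAi against control gave 6 calls in a fit of only its arrays and 1 by the test of the methods, and 19 to 29 with 1 array left out. Its 831 at the looser threshold were 175 among bright probe sets, 227 with the floor, 492 by the test of the methods and 624 to 1367 with 1 array left out. The 10 interaction calls were 6 under median centring, 5 with no trend, 3 with only the arrays compared and 5 to 7 with 1 array left out. The count of 8 probe sets called in both Aop RNAi comparisons, recomputed after seeing the data, was 5 with the floor, 5 with no trend, 0 with only the arrays compared, 0 by the test of the methods and 4 to 7 with 1 array left out. No value called between TFAM o/e, Aop RNAi and TFAM o/e changed direction under these settings. The calls of the other comparisons were not checked for direction call by call. The cause of the changes in these counts was not tested. Between 47.4 and 49.3% of probe sets lay under log2 5, where MAS5 values scatter widely, and small differences there were not detectable with 3 arrays per genotype.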
